A study of Mus musculus with 13 samples.

Results

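The α-catenins and the genes of cadherin adhesion were examined in RNA-Seq data of sorted brain myeloid cells. The group holds 8 of the 52636 genes listed for each mouse: Ctnna1, Ctnna2, Ctnna3, Ctnnal1, Ctnnd1, Jup, Cdh1 and Cdh2, found by matching Ensembl identifiers to these symbols. The group was chosen by gene family around Ctnna3, which was picked for its counts and levels in PS2APP;Trem2ko against PS2APP;Trem2wt mice, so the levels in the 2 genotypes are described here without a p-value for any of these genes. Cells were sorted from the cortex and hippocampus of mice aged 14 to 15 months as CD11b+, CD45+, Ly6g- and Ccr2-, a gate that takes microglia and a small share of perivascular macrophages. All mice carried the PS2APP transgenes, mutant human presenilin 2 and amyloid precursor protein, which produce β-amyloid plaque. They were either PS2APP;Trem2wt (n = 7, 5 females and 2 males) or PS2APP;Trem2ko (n = 6, 5 females and 1 male), the latter homozygous for a Trem2-null allele that the study's methods describe as made on a C57BL/6N background and crossed into a C57BL/6J line. Per the study's methods, a mouse of each genotype was generally carried through perfusion and sorting together, but the labels do not give these pairs. Each mouse gave 1 library, and mice without the transgenes were not analysed here.

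Cadherins are membrane proteins that bind the same cadherin on a neighboring cell when calcium is present. Inside the cell, β-catenin or its relative plakoglobin holds the cadherin tail, p120-catenin binds it close to the membrane, and an α-catenin ties the complex to actin. The same proteins touch Wnt signaling, because β-catenin is also its nuclear messenger and α-catenins can hold β-catenin back from that role.

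Total counts were between 26120961 and 120569609 per mouse, so 3 counts, taken as the limit of detection, correspond to 0.0249 to 0.115 CPM (counts scaled to library size). This limit covers counting error only. Levels are given as nRPKM, the authors' RPKM after adjustment by a size factor, which is per length and may be compared between genes. Differences are log2 fold changes of the counts, PS2APP;Trem2ko minus PS2APP;Trem2wt, with a standard error (SE) derived from the fold change and test statistic of edgeR. Trem2 itself, on chromosome 17, averaged 1044 nRPKM in PS2APP;Trem2wt and 0.887 in PS2APP;Trem2ko mice. The 11 microglial markers checked were all expressed. Their summed level was 15527 to 18778 nRPKM in PS2APP;Trem2wt and 15642 to 17436 in PS2APP;Trem2ko mice. Of them only Cx3cr1 had an edgeR adjusted p of 0.05 or less (0.0067), with means of 1526 and 1088 nRPKM (log2 fold change -0.49 ± 0.086, SE). Over all mice, 9 neuronal markers summed to 4.2 to 13.2 nRPKM. Astrocyte markers summed to 63.8 to 89.5 nRPKM and oligodendrocyte markers to 22.6 to 38.8. Border macrophage markers summed to 9.69 to 42.4 nRPKM, and monocyte and neutrophil markers to 2.61 to 126. Libraries also stood apart in a set of genes of stratified epithelium, whose values are given with Cdh1. In sorted bulk RNA, fewer cells of a type and less RNA per cell cannot be told apart.

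Across the 17086 genes tested, edgeR's quasi-likelihood test with Benjamini-Hochberg adjustment called 348 genes between the genotypes at an adjusted p of 0.05 or less, or 2.04%, with 1.53% lower and 0.503% higher in PS2APP;Trem2ko mice. With at least a 2-fold change as well, the shares were 0.691% lower and 0.0527% higher. All 8 genes of the group passed the expression filter, Ctnna3 through the PS2APP;Trem2wt mice alone. Of the 8, Ctnna3 and Jup were called lower and 0 were called higher, and of these only Ctnna3 differed by at least 2-fold. Because these counts come from the contrast that guided the choice of genes, nothing is read from them.

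**Figure D1:**
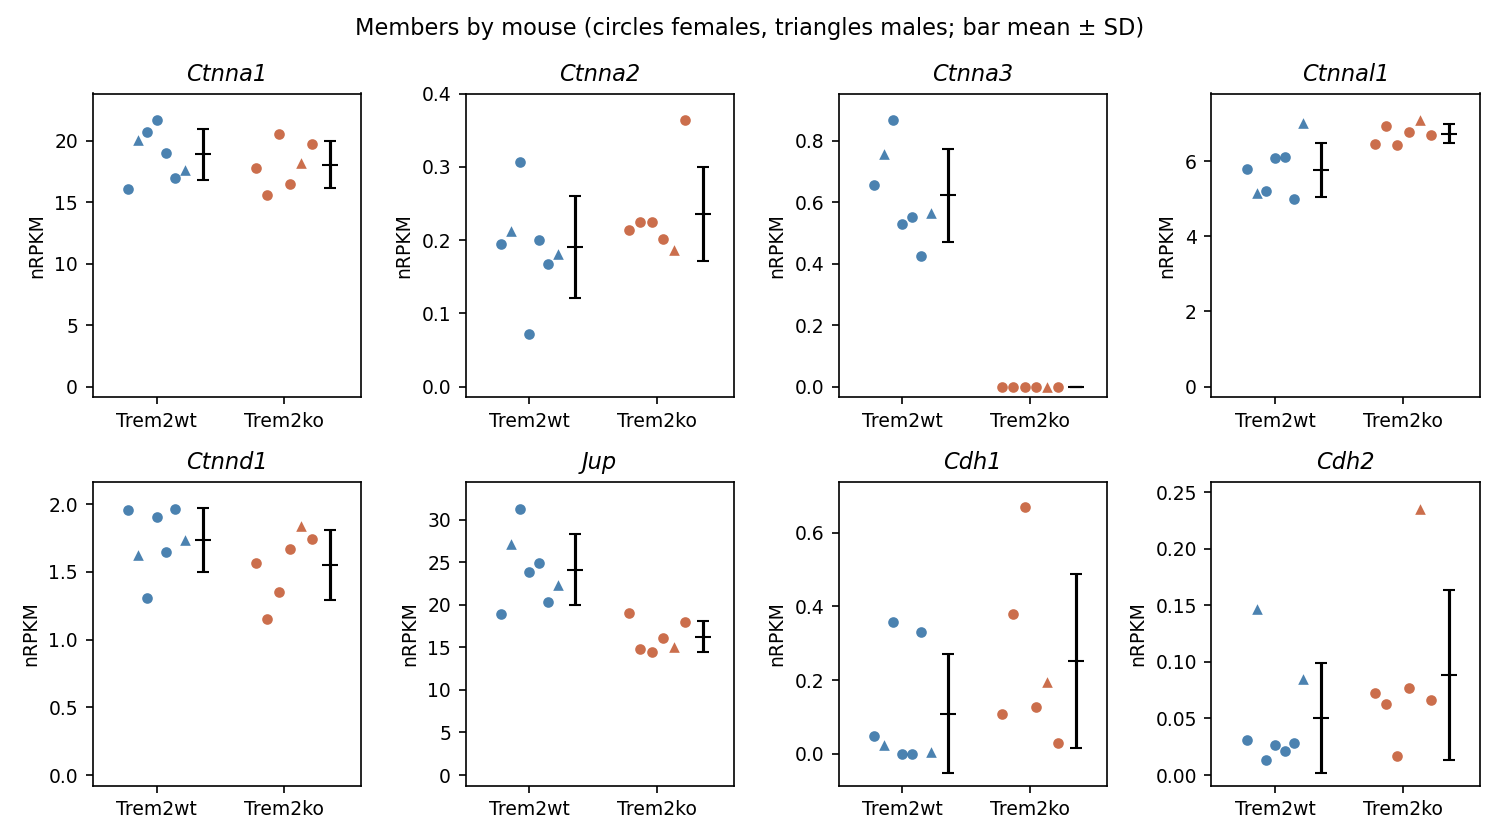
Level of each gene in every mouse, in nRPKM on linear axes, with circles for females, triangles for males and a bar for the mean ± SD (n = 7 PS2APP;Trem2wt, n = 6 PS2APP;Trem2ko). Ctnna3 lies between 0.426 and 0.868 nRPKM in PS2APP;Trem2wt mice and at 0 in all 6 PS2APP;Trem2ko mice, Jup is lower in PS2APP;Trem2ko mice with a single overlap, and the remaining genes overlap between the genotypes.

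Ctnna3 encodes αT-catenin, an α-catenin best known from heart muscle and testis. The gene (ENSMUSG00000060843) runs along the plus strand of chromosome 10 from 63430098 to 65003667 in GRCm38, a span of 1573570 bases. In PS2APP;Trem2wt mice 1 to 7, its count was 130, 110, 337, 76, 117, 69 and 345, and its level was 0.656, 0.758, 0.868, 0.528, 0.553, 0.426 and 0.566 nRPKM. It had 0 counts in each of the 6 PS2APP;Trem2ko mice, among 433460211 counts in all. The groups do not overlap, as for 1.18% of the genes tested in this direction. The lowest PS2APP;Trem2wt library still held 69 reads of the gene. The mean was 3.29 ± 0.763 CPM (SD, n = 7) in PS2APP;Trem2wt mice. With each PS2APP;Trem2ko library set to its limit of 3 counts, which averages 0.0502 CPM, Ctnna3 was at least 65.4-fold lower. Of the 10645 genes with 69 or more counts in every PS2APP;Trem2wt mouse, Ctnna3 was the only 1 with 0 counts in every PS2APP;Trem2ko mouse. A zero was the value by which the gene stands out, and it is given as a description.

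The starts of Ctnna3 and Jup are shown because these are the genes of the group that were called lower. RefSeq on GRCm38.p6 gave promoters, from 250 bases before to 50 bases after a start, for 5 of the 8 genes, with 3 starts for Ctnna3, 2 for Ctnnd1 and 1 each for Ctnna2, Ctnnal1 and Jup. Each sequence runs 5′ to 3′ on the strand of its gene, and capitals mark a match to a searched motif. The first is the annotated start of Ctnna3 at chr10:63429848-63430147 (plus strand, 67.0% G and C), the second 1 of its 2 starts inside the gene, the one with a match, at chr10:63820805-63821104 (plus strand, 47.3% G and C), and the last the start of Jup at chr11:100397741-100398040 (minus strand, 60.7% G and C).
Ctnna3, first start: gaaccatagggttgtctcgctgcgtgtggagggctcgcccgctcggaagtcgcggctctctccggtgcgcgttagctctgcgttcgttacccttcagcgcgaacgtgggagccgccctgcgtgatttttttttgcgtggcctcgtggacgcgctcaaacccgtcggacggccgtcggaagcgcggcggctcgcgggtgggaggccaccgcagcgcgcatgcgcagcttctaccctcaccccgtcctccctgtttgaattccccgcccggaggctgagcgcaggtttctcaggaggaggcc
Ctnna3, internal start: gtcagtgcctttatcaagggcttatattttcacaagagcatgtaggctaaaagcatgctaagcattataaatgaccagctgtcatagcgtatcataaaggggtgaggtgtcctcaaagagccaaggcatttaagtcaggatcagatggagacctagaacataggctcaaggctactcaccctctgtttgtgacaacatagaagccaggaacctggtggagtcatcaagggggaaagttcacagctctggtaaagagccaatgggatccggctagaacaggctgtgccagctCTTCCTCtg
Jup: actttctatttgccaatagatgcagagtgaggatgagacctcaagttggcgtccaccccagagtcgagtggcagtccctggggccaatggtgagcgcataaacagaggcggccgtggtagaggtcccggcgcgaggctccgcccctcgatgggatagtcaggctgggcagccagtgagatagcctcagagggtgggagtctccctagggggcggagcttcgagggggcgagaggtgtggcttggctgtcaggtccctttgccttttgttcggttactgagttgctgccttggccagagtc
The median promoter in RefSeq held 52.7% G and C. Both strands were searched for the core of the myeloid factor PU.1 (GAGGAAG), the AP-1 site (TGANTCA), the E-box of the MiT/TFE family (CACGTG) and the TCF/LEF site of Wnt signaling (CTTTGAT), which do not overlap in these windows. They occur in 13.6%, 7.81%, 7.15% and 3.73% of all 32851 promoters of this length. The first start of Ctnna3 and the start of Jup hold none of these letters. The internal start of Ctnna3 printed here holds the PU.1 core at base 292 on the minus strand, the other internal start at chr10:63457261-63457560 holds none of the motifs, and both Ctnnd1 starts hold the PU.1 core on the minus strand. A match describes letters only.

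The other α-catenins had counts in every mouse of both genotypes. Ctnna1 (ENSMUSG00000037815, chromosome 18) encodes αE-catenin, the widely expressed α-catenin of epithelia and many other tissues. Its level ran from 16.1 to 21.7 nRPKM (median 19.0) in PS2APP;Trem2wt mice and from 15.6 to 20.6 nRPKM (median 18.0) in PS2APP;Trem2ko mice. The groups overlapped almost fully, and the log2 fold change was -0.07 ± 0.085 (SE, n = 7 and 6), with a 95% interval of -0.25 to 0.11. Ctnna2 (ENSMUSG00000063063, chromosome 6, 76881637 to 77979699) encodes αN-catenin of neurons. Its level ran from 0.0713 to 0.306 nRPKM (median 0.195) in PS2APP;Trem2wt mice and from 0.187 to 0.364 nRPKM (median 0.219) in PS2APP;Trem2ko mice. The highest value belonged to PS2APP;Trem2ko mouse 6 and the lowest to PS2APP;Trem2wt mouse 4. The log2 fold change was 0.29 ± 0.26 (SE), with a 95% interval of -0.27 to 0.86.

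Added up per mouse, the nRPKM of the 3 α-catenins was almost all Ctnna1. Ctnna1 made up 95.9% ± 0.94 (SD, n = 7) of it in PS2APP;Trem2wt mice, against 98.7% ± 0.29 (SD, n = 6) in PS2APP;Trem2ko mice. Ctnna3 made up 3.16% ± 0.66, between 2.37% and 3.96% in single PS2APP;Trem2wt mice, and 0 in PS2APP;Trem2ko mice. Ctnna2 made up 0.974% ± 0.33 and 1.29% ± 0.29. The transcript at 0 was thus a minor one within its family by level.

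Ctnna2 is a gene of neurons, so its level was set beside the summed level of markers of other cell types. Among 36 relations computed for Ctnna2, Cdh1 and Cdh2 with such lists or with total counts, Ctnna2 with 7 astrocyte markers on log2(nRPKM + 0.1) was the single 1 whose Pearson r had an adjusted p under the threshold (r = 0.770 over 13 mice, permutation test p = 0.00071, adjusted p = 0.0256). By rank it did not pass (Spearman ρ = 0.687, permutation test p = 0.0114, adjusted p = 0.382). The permutations shuffled all 13 mice without regard to genotype, so these p-values also take in any difference between the genotypes. Without the 2 mice farthest from the median of the astrocyte sum, r was 0.515, and within the genotypes it was 0.860 (n = 7) and 0.564 (n = 6). With the 9 neuronal markers r was 0.514 (permutation test p = 0.0662, adjusted p = 0.279). The astrocyte markers summed to 63.8 to 83.8 nRPKM in PS2APP;Trem2wt and 69.6 to 89.5 nRPKM in PS2APP;Trem2ko mice. Most of this sum was Slc1a3, at 46.9 ± 3.62 nRPKM (SD, n = 7) and 57.8 ± 5.12 (SD, n = 6), and it exceeded the PS2APP;Trem2wt range in 5 of 6 PS2APP;Trem2ko mice (log2 fold change 0.30 ± 0.075, SE, edgeR adjusted p = 0.0533). Gfap averaged 11.5 and 9.55 nRPKM and Aldoc 11 and 10.6 nRPKM, and Aqp4, Aldh1l1, Slc1a2 and Gja1 each averaged 1.47 nRPKM or less. The part of these transcripts in the level of Ctnna2 was not tested.

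Ctnnal1 (ENSMUSG00000038816, chromosome 4, 56810935 to 56865188) encodes α-catulin, a relative of the α-catenins. Its level ran from 4.99 to 7.02 nRPKM (median 5.78) in PS2APP;Trem2wt and from 6.43 to 7.09 nRPKM (median 6.73) in PS2APP;Trem2ko mice. In 6 of 7 PS2APP;Trem2wt mice it lay below every PS2APP;Trem2ko mouse, and the exception was PS2APP;Trem2wt mouse 7 at 7.02 nRPKM, a male. The log2 fold change was 0.22 ± 0.084 (SE), with a 95% interval of 0.04 to 0.40, and the gene was not called. The spread between mice was also smaller in PS2APP;Trem2ko mice, with a coefficient of variation of 3.89% against 12.5%. The difference between these spreads was not tested.

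Jup (ENSMUSG00000001552, chromosome 11, minus strand, 100368958 to 100397763) encodes plakoglobin, also called γ-catenin, which serves both adherens junctions and desmosomes. Its level was 18.9, 27.2, 31.3, 23.9, 24.9, 20.4 and 22.4 nRPKM in PS2APP;Trem2wt mice 1 to 7. It was 19.0, 14.8, 14.5, 16.1, 15.1 and 17.9 nRPKM in PS2APP;Trem2ko mice 1 to 6. In 5 of 6 PS2APP;Trem2ko mice it lay below every PS2APP;Trem2wt mouse, and PS2APP;Trem2ko mouse 1 lay just above the lowest of them. The log2 fold change was -0.57 ± 0.11 (SE), with a 95% interval of -0.81 to -0.34, which is under 2-fold. In the females alone it was -0.54 ± 0.13 (SE), and the gene was no longer called there.

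β-Catenin (Ctnnb1), which takes the same place on the cadherin tail, was the more abundant transcript. Its level was 55.6 ± 4.28 nRPKM (SD, n = 7) in PS2APP;Trem2wt mice, against 47.7 ± 3.69 (SD, n = 6) in PS2APP;Trem2ko mice, and it did not pass the test (log2 fold change -0.22 ± 0.069, SE, edgeR adjusted p = 0.121). The ratio of Jup to Ctnnb1 in nRPKM was 0.434 ± 0.062 (SD, n = 7), between 0.332 and 0.496, in PS2APP;Trem2wt mice. In PS2APP;Trem2ko mice it was 0.342 ± 0.041 (SD, n = 6), between 0.277 and 0.383, so that the ranges overlapped. About 12.3% of the 50-base words of Ctnnb1 transcripts also occur in other genes, most often in Ulk4, against 0.764% of those of Jup, so a part of the Ctnnb1 reads may be shared.

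Ctnnd1 (ENSMUSG00000034101, chromosome 2, 84600071 to 84650765) encodes p120-catenin, which keeps cadherins at the membrane. Its level ran from 1.31 to 1.97 nRPKM (median 1.74) in PS2APP;Trem2wt and from 1.15 to 1.84 nRPKM (median 1.62) in PS2APP;Trem2ko mice. The groups overlapped, and the log2 fold change was -0.16 ± 0.12 (SE), with a 95% interval of -0.42 to 0.10. Of its 50-base transcript words, 56.7% also occur in other genes, most often in Gm28635, an overlapping gene on the same strand that is listed with 0 counts in every mouse. The level of Ctnnd1 is therefore uncertain.

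The classical cadherins were the least abundant genes of the group in PS2APP;Trem2wt mice. Cdh1 (ENSMUSG00000000303, chromosome 8, 106603351 to 106670246) encodes E-cadherin of epithelia. Its level was 0.0472, 0.0234, 0.357, 0, 0, 0.330 and 0.00418 nRPKM in PS2APP;Trem2wt mice 1 to 7, from counts of 11, 4, 163, 0, 0, 63 and 3. It was 0.108, 0.381, 0.671, 0.127, 0.194 and 0.0283 nRPKM in PS2APP;Trem2ko mice 1 to 6, from counts of 85, 152, 178, 40, 143 and 8. Only PS2APP;Trem2wt mice 3 and 6 reached the higher PS2APP;Trem2ko mice, and the other 5 PS2APP;Trem2wt mice lay at 0.0472 nRPKM or less. The log2 fold change was 1.19 ± 0.99 (SE), with a 95% interval of -0.92 to 3.30. It was 1.94 without PS2APP;Trem2wt mouse 3 and 0.62 without PS2APP;Trem2ko mouse 3.

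Most libraries with the higher Cdh1 levels also held transcripts of stratified epithelium. Krt5, a keratin of its basal layer, stood at 1.36 and 1.72 nRPKM in PS2APP;Trem2wt mice 3 and 6, at 0.0237 or less in the other 5 PS2APP;Trem2wt mice, and at 0.407 to 1.89 (median 0.806) in PS2APP;Trem2ko mice. Krt14, its partner keratin, stood at 1.3 and 1.23 nRPKM in the same PS2APP;Trem2wt mice, at 0.0308 or less in the other 5, and at 0.369 to 2.36 nRPKM (median 0.986) in PS2APP;Trem2ko mice. Krt15, Trp63 and the desmosomal genes Dsc3, Dsg3 and Pkp1 had this order too, with all 6 PS2APP;Trem2ko mice above those 5 PS2APP;Trem2wt mice for each. For Cdh1, 5 of 6 PS2APP;Trem2ko mice lay above them, all but mouse 6. PS2APP;Trem2wt mouse 1 had 11 counts of Cdh1 with 0 of Krt5 and Krt14, whereas PS2APP;Trem2ko mouse 6 had 8 counts of Cdh1 with Krt5 at 0.407 nRPKM. A list of 10 such genes, written after these values were seen, summed to 0.570 to 9.10 nRPKM in PS2APP;Trem2wt and 2.38 to 8.61 nRPKM in PS2APP;Trem2ko mice, and 0 of its 6 tested genes were called by edgeR (1 at an unadjusted p under 0.05), by voom and limma or by DESeq2. Other genes of this list did not all have the order: all 6 PS2APP;Trem2ko mice lay above the 5 PS2APP;Trem2wt mice for Krtdap, 5 for Lgals7, 3 for Krt1, 1 each for Krt10 and Lor, and 0 for Sfn, and Krtdap and Lor were at 0 in PS2APP;Trem2wt mouse 6. In the 5 PS2APP;Trem2wt mice the highest count was 8 for Krt5 and 2 for Krt14. The part of these transcripts in the level of Cdh1 was not tested.

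**Figure D2:**
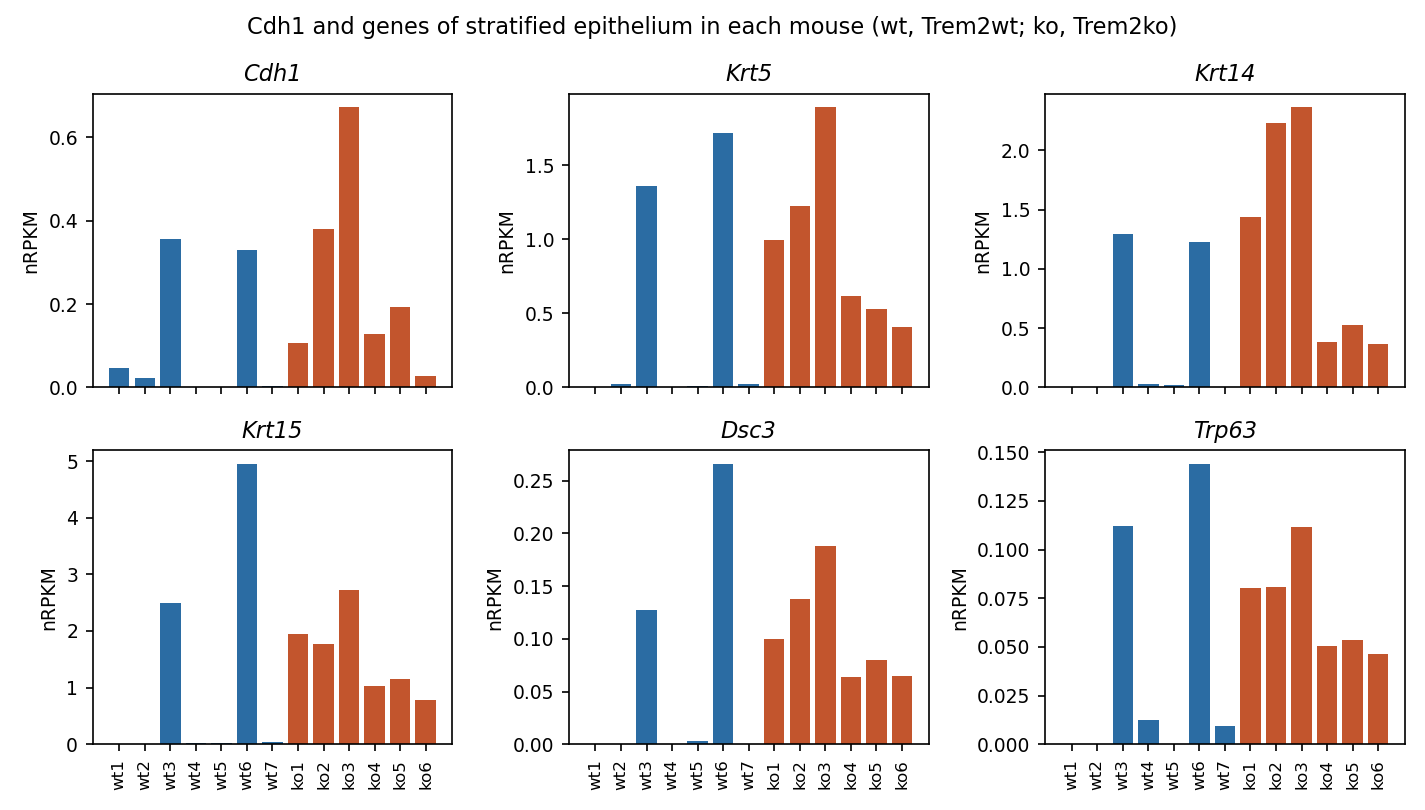
Level of Cdh1 and of 5 genes of stratified epithelium in each mouse, in nRPKM on linear axes from 0, with blue bars for PS2APP;Trem2wt mice (wt1 to wt7) and orange bars for PS2APP;Trem2ko mice (ko1 to ko6). The bars of wt3, wt6 and all 6 PS2APP;Trem2ko mice stand above those of the other 5 PS2APP;Trem2wt mice for the keratins, Dsc3 and Trp63, and Cdh1 has this pattern apart from ko6.

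Cdh2 (ENSMUSG00000024304, chromosome 18) encodes N-cadherin, known from neurons, astrocytes and muscle. Its level ran from 0.0137 to 0.147 nRPKM (median 0.0281, 5 to 68 counts) in PS2APP;Trem2wt mice and from 0.0169 to 0.235 nRPKM (median 0.0694, 5 to 194 counts) in PS2APP;Trem2ko mice. The groups overlapped, and the log2 fold change was 0.84 ± 0.60 (SE), with a 95% interval of -0.44 to 2.12. It was 0.25 without PS2APP;Trem2ko mouse 5, the single male of its genotype, and 1.33 without PS2APP;Trem2wt mouse 2, also a male.

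The sexes were compared next, since the choice of genes did not use sex. With genotype in the fit, edgeR called 4 of 17086 genes between males and females (0.0234%), and 0 of the 8 genes. Of these 8, only Cdh2 had an unadjusted p under 0.05, against 1187 of all genes (6.95%). Cdh2 stood at 0.0848, 0.147 and 0.235 nRPKM in the 3 males and at 0.0768 or less in the 10 females. All 3 males thus lay above all 10 females, as they did for 0.316% of the genes tested. The means were 0.156 ± 0.0757 (SD, n = 3) and 0.0415 ± 0.0249 nRPKM (SD, n = 10), and males exceeded females by 2.16 ± 0.39 (SE) on the log2 scale, with an edgeR adjusted p of 0.156. The adjusted p was 0.0438 with voom and limma, 0.0067 with DESeq2, and between 0.0754 and 0.747 in edgeR when each mouse was left out in turn. With sex in the fit, the log2 fold change between genotypes was 1.25 ± 0.37 (SE). Among females, the 5 PS2APP;Trem2wt mice lay between 0.0137 and 0.031 nRPKM and the 5 PS2APP;Trem2ko mice between 0.0169 and 0.0768.

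**Figure D3:**
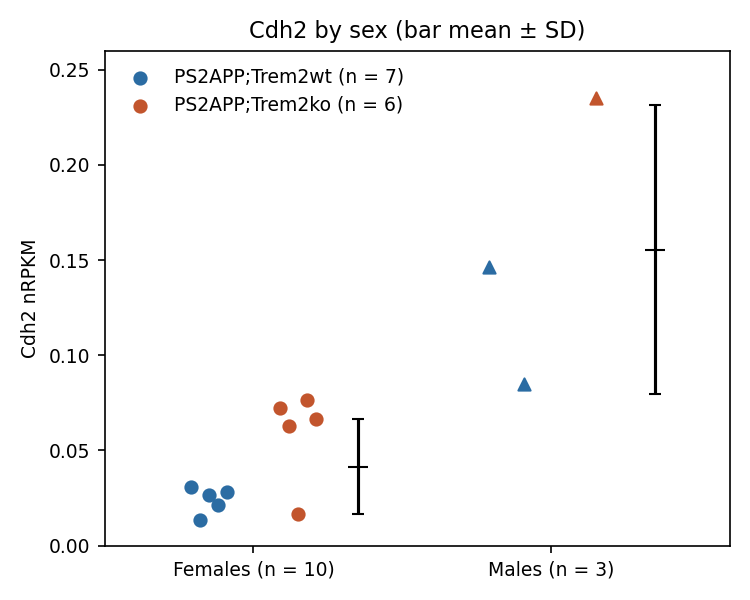
Level of Cdh2 in nRPKM on a linear axis from 0, by sex, with blue for PS2APP;Trem2wt, orange for PS2APP;Trem2ko and a bar for the mean ± SD over each sex. The 3 males, at 0.0848 to 0.235 nRPKM, lie above all 10 females, whose highest value is 0.0768.

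By level, the order in PS2APP;Trem2wt mice was Jup, Ctnna1, Ctnnal1, Ctnnd1, Ctnna3, Ctnna2, Cdh1 and Cdh2. The ranges of Jup and Ctnna1 overlapped, as did those of Ctnna2 and Cdh1 and those of Cdh1 and Cdh2. Within libraries, Jup was still above Ctnna1 in every PS2APP;Trem2wt mouse, whereas the order of the other overlapping pairs changed between mice. In PS2APP;Trem2ko mice the order was Ctnna1, Jup, Ctnnal1, Ctnnd1, Cdh1, Ctnna2, Cdh2 and Ctnna3. Ctnna1 and Jup again overlapped, and so did Cdh1 with Ctnna2 and Ctnna2 with Cdh2. Relative spread was smallest in the abundant genes, with a coefficient of variation of 11% for Ctnna1 in PS2APP;Trem2wt mice against 148% for Cdh1 and 96.4% for Cdh2.

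The wider junction was described with lists of 92 other genes, of which 59 were tested. edgeR called 1 of them lower and 1 higher in PS2APP;Trem2ko mice, against 1.53% and 0.503% of all genes. Their median log2 fold change was -0.04, against 0.00 over all genes. At an unadjusted p under 0.05 there were 10 lower and 4 higher among the 59, against 14.8% of all genes in either direction.

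The cytoplasmic partners, which bind catenins or actin at the junction, were all tested (21 of 21). The log2 fold change was below 0 for 16 of them and above 0 for 5 (median -0.16, against 0.00 over all genes). edgeR called Fmn1 alone, as lower. An unadjusted p under 0.05 was reached by 6 lower and 1 higher of the 21, against 14.8% of all genes in either direction. Fmn1 encodes formin 1, a protein that builds linear actin filaments and binds α-catenin. Its level ran from 1.54 to 2.64 nRPKM in PS2APP;Trem2wt and from 0.780 to 1.13 nRPKM in PS2APP;Trem2ko mice, without overlap, as for 1.18% of all genes in this direction. The log2 fold change was -1.11 ± 0.13 (SE, edgeR adjusted p = 0.00014). Evl, an Ena/VASP protein of actin filament ends, was the second most abundant partner after Ctnnb1 at 30.8 ± 2.69 nRPKM (SD, n = 7) and 29.9 ± 2.71 (SD, n = 6; log2 fold change -0.05 ± 0.075, SE, edgeR adjusted p = 0.833).

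Of 9 nectins and nectin-like genes, which adhere without calcium, 8 were tested and edgeR called Cadm2 alone, as higher. Of the 8, 2 lower and 1 higher had an unadjusted p under 0.05, against 14.8% of all genes in either direction. Cadm2 is a synaptic adhesion molecule, and it was low in these cells, at 0.0594 to 0.106 nRPKM (22 to 166 counts) in PS2APP;Trem2wt and 0.124 to 0.258 nRPKM (83 to 415 counts) in PS2APP;Trem2ko mice. Its groups did not overlap, as for 0.439% of all genes in this direction, and its log2 fold change was 0.89 ± 0.21 (SE, edgeR adjusted p = 0.0382). Its call was lost with each of 9 single mice left out, and held without PS2APP;Trem2wt mouse 1 or 7 or PS2APP;Trem2ko mouse 4 or 6. DESeq2 also called Cadm2, but voom and limma did not (adjusted p = 0.0534). Limma on log2(nRPKM + 0.1) or log2(nRPKM + 1) did not call it either (adjusted p = 0.130 and 0.146). Cadm1, the most abundant of this list, stood at 61.7 ± 6.71 nRPKM (SD, n = 7) and 49.8 ± 3.68 (SD, n = 6; log2 fold change -0.31 ± 0.077, SE, edgeR adjusted p = 0.0506), and voom and limma, DESeq2 and limma on nRPKM called it lower. Cadm4, which these called lower too, ran from 0.266 to 0.623 nRPKM in PS2APP;Trem2wt and from 0.130 to 0.267 nRPKM in PS2APP;Trem2ko mice, 5 of 6 of them below every PS2APP;Trem2wt mouse (log2 fold change -1.06 ± 0.27, SE, edgeR adjusted p = 0.0565). Nectin4 stood at 11.6 ± 1.5 and 12 ± 0.793 nRPKM (log2 fold change 0.04 ± 0.085, SE, edgeR adjusted p = 0.866).

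Most other cadherins were too low to test, 7 of 21 passing the filter, and 0 were called (2 at an unadjusted p under 0.05; DESeq2 called 1, Cdh23). Cdh23, known from the hair cells of the ear, was far above the rest, at 5.53 to 9.97 nRPKM (mean 6.86) in PS2APP;Trem2wt and 8.08 to 9.90 nRPKM (mean 9.09) in PS2APP;Trem2ko mice. Its log2 fold change was 0.40 ± 0.13 (SE, edgeR adjusted p = 0.131), and only PS2APP;Trem2wt mice 4 and 7 reached the PS2APP;Trem2ko range. It was thus more abundant than Cdh1 and Cdh2 in every mouse. Cdh5, the cadherin of endothelium, stood at 0.188 ± 0.0792 and 0.176 ± 0.118 nRPKM (edgeR adjusted p = 0.959). In the 7 tested desmosomal genes of 12, edgeR called 0 (1 at an unadjusted p under 0.05; voom and limma called Dsc3 higher, DESeq2 0), and the median log2 fold change was 0.90. Perp stood at 5.79 ± 1.5 and 4.23 ± 0.807 nRPKM (edgeR adjusted p = 0.206) and Pkp3 at 0.0915 ± 0.101 and 0.196 ± 0.0996 nRPKM (edgeR adjusted p = 0.515). Dsc3, Dsg3 and Pkp1 of this list are the genes that followed the keratins.

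Among 19 protocadherins and large cadherins 11 were tested and edgeR called 0, also at an unadjusted p under 0.05, as did voom and limma and DESeq2 after adjustment. Fat3, a giant cadherin, stood at 0.638 ± 0.134 and 0.544 ± 0.10 nRPKM (edgeR adjusted p = 0.514) and Pcdh9 at 0.170 ± 0.111 and 0.224 ± 0.119 nRPKM (edgeR adjusted p = 0.806). Of the 7 repressors of cadherin genes, Zeb1 and Zeb2 were tested and neither was called by edgeR, also at an unadjusted p under 0.05, by voom and limma or by DESeq2. Zeb2, a repressor that microglia express, stood at 12.5 ± 2.04 and 10.8 ± 1.46 nRPKM (log2 fold change -0.21 ± 0.11, SE, edgeR adjusted p = 0.394). Zeb1 stood at 2.52 ± 0.288 and 2.56 ± 0.305 nRPKM (edgeR adjusted p = 0.949).

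**Figure D4:**
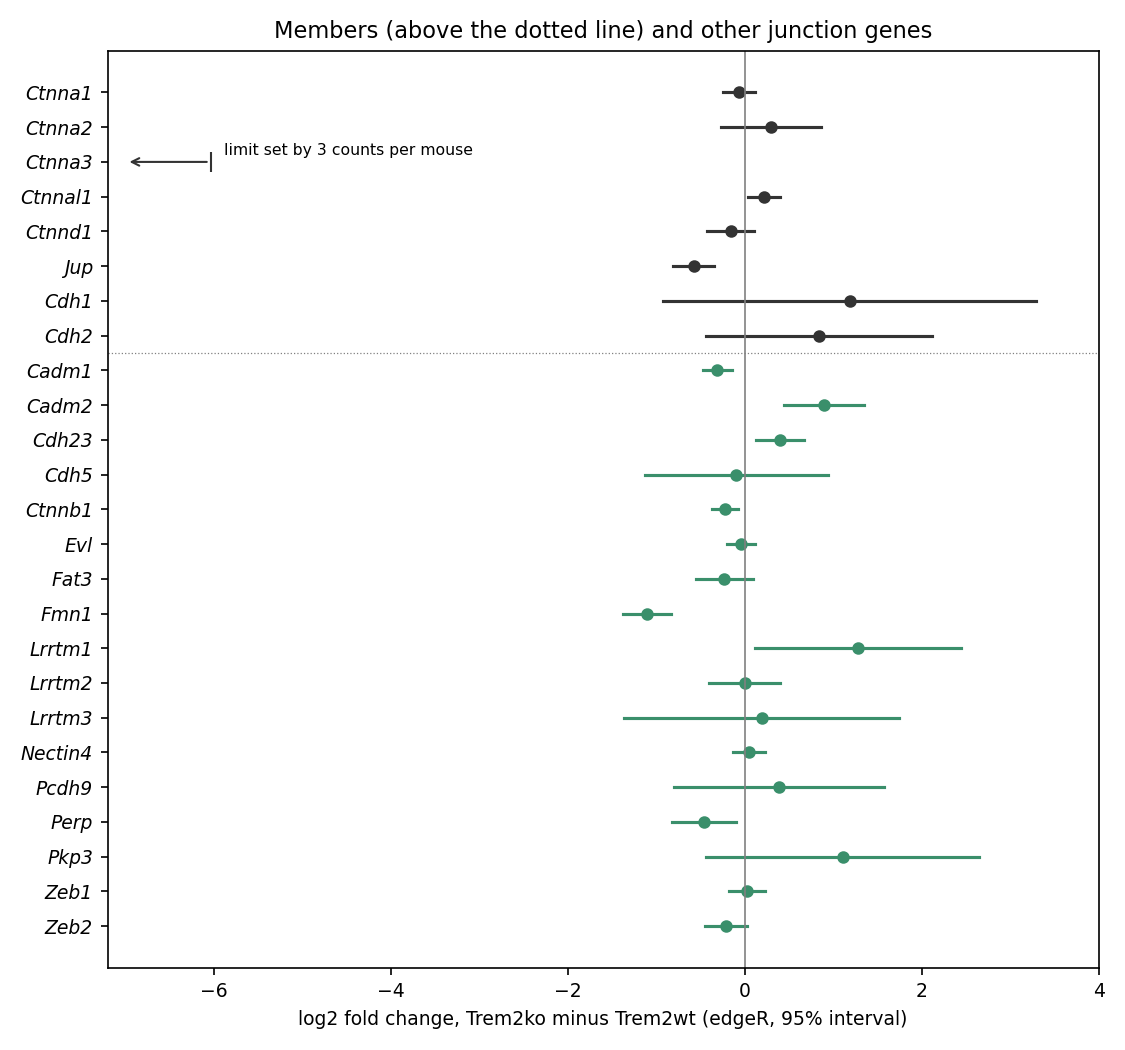
Log2 fold change between genotypes (PS2APP;Trem2ko minus PS2APP;Trem2wt, edgeR) with its 95% interval, for the 8 genes above the dotted line and other junction genes below it. Ctnna3 is drawn as an arrow from its limit of -6.03, Jup at -0.57 and Fmn1 at -1.11 lie left of 0, Cadm2 at 0.89 lies right of it, and the intervals of Cdh1 and Cdh2 span it.

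Each α-catenin gene holds a leucine-rich-repeat synaptic gene on the opposite strand inside its span: Lrrtm2 in Ctnna1, Lrrtm1 in Ctnna2 and Lrrtm3 in Ctnna3. Whether the counts used the strand is not given in the sources used here, so reads of such pairs may not be told apart where they share exons. Lrrtm3 had counts in 5 of 6 PS2APP;Trem2ko mice in which Ctnna3 had 0. Its level was 0.0599 ± 0.0379 nRPKM (SD, n = 7) in PS2APP;Trem2wt mice, against 0.0694 ± 0.0581 (SD, n = 6) in PS2APP;Trem2ko mice, and its log2 fold change was 0.19 ± 0.73 (SE, edgeR adjusted p = 0.941). Lrrtm2 stood at 0.443 and 0.444 nRPKM (edgeR adjusted p = 0.998) and Lrrtm1 at 0.0723 and 0.178 nRPKM (edgeR adjusted p = 0.283).

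The genes around Ctnna3 were tested to see whether its neighborhood differed between genotypes. Within 1 Mb of the gene or inside it lie 53 listed genes, of which 24 were tested. All tested genes outside Ctnna3 lie on the side of its start, so the region past its end is not described. edgeR called 0 lower (DESeq2 called Tet1 lower) and 2 higher, Hnrnph3 and Herc4, against 1.53% lower and 0.503% higher among all genes. At an unadjusted p under 0.05 there were 4 of the 24 in either direction, against 14.8% of all genes. Hnrnph3, an RNA-binding protein gene 405881 bases away, rose from 8.66 ± 1.0 to 11.5 ± 1.13 nRPKM (log2 fold change 0.40 ± 0.091, SE, edgeR adjusted p = 0.0319). Herc4, a ubiquitin ligase gene 112220 bases away, rose from 10.9 ± 0.849 to 13.5 ± 1.02 nRPKM (log2 fold change 0.30 ± 0.069, SE, edgeR adjusted p = 0.0342). With single mice left out, Herc4 stayed called only without PS2APP;Trem2wt mouse 6 or 7 or PS2APP;Trem2ko mouse 5, and Hnrnph3 only without PS2APP;Trem2wt mouse 1, 2, 3 or 7 or PS2APP;Trem2ko mouse 3 or 5. Herc4 overlaps the antisense gene Gm26789 and Hnrnph3 overlaps Rufy2 on the other strand, so their reads may be shared. Closer to Ctnna3, Dnajc12 at 19522 bases and Sirt1 at 48394 bases had log2 fold changes of -0.02 ± 0.15 and 0.09 ± 0.11 (SE, edgeR adjusted p = 0.969 and 0.752). Tet1, a DNA demethylase gene, had one of -0.77 ± 0.22 (SE, edgeR adjusted p = 0.089). Inside Ctnna3, on the opposite strand, Gm10118 stood at 0.200 ± 0.224 nRPKM in PS2APP;Trem2wt and 0.0414 ± 0.0697 nRPKM in PS2APP;Trem2ko mice (log2 fold change -2.16 ± 1.03, SE, edgeR adjusted p = 0.346), with 0 to 77 counts per PS2APP;Trem2ko mouse.

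**Figure D5:**
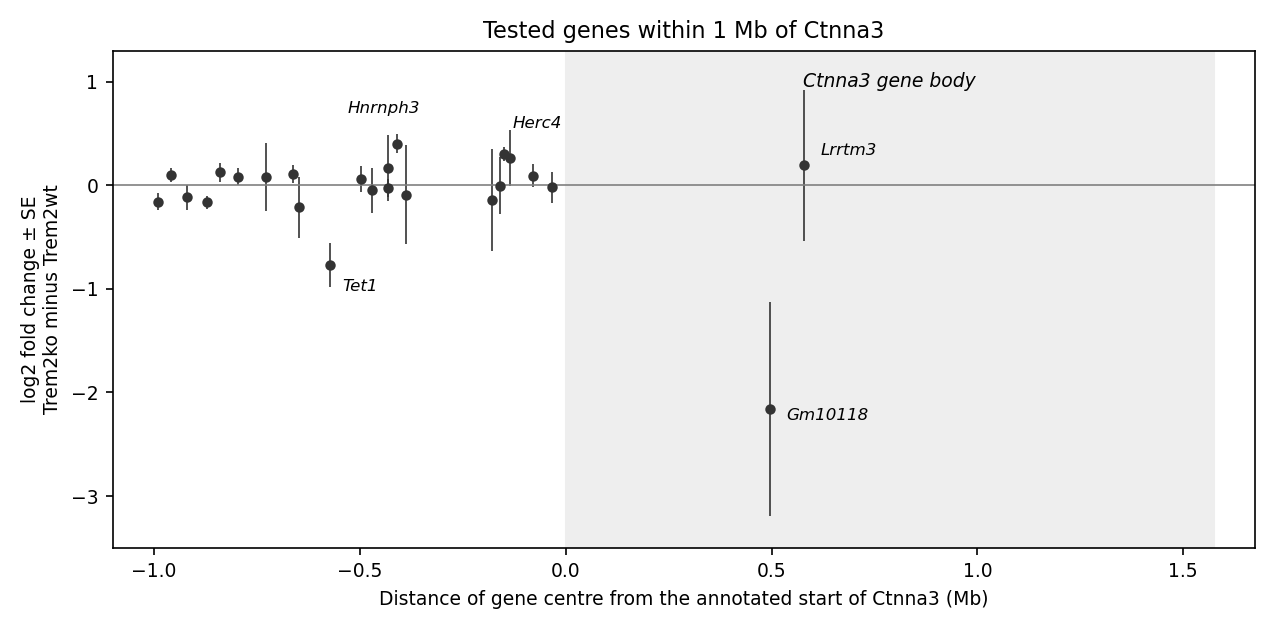
Log2 fold change ± SE (PS2APP;Trem2ko minus PS2APP;Trem2wt, edgeR) of the 24 tested genes within 1 Mb of Ctnna3, against the distance of the center of each gene from the annotated start of Ctnna3 in Mb, with the gene body shaded. Most points lie near 0, Hnrnph3 and Herc4 lie at 0.40 and 0.30, and Gm10118 at -2.16 has the largest SE.

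Genes whose levels were among the most like those of Ctnna3 over the 13 mice, by Pearson r of log2(nRPKM + 0.1), were Trem2 (r = 0.987), Dcstamp (r = 0.984), Dkk2 (r = 0.981) and Bambi (r = 0.976). These r are given as a description, since the mice fall into 2 separate clusters by genotype and the values share libraries. Dcstamp averaged 5.73 nRPKM in PS2APP;Trem2wt and 0.112 in PS2APP;Trem2ko mice, Dkk2 4.49 and 0.111, and Bambi 1.57 and 0.355. All 4 remained detectable in PS2APP;Trem2ko mice by their means, whereas Ctnna3 had 0 counts. Ctnna3 was also lower than all 4 in PS2APP;Trem2wt mice, at a mean of 0.622 nRPKM. Its 0 counts therefore cannot show a loss more complete than that of Trem2.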

How the data were processed

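RNA-Seq libraries of sorted cells from 13 mice were used, grouped by the genotype in the sample labels, with each mouse 1 replicate. The authors discarded adapter, low-quality and rRNA reads, aligned single-end reads to GRCm38 with GSNAP and deposited unnormalized counts and nRPKM, an RPKM adjusted by a size factor, for 52636 genes. The study's methods name SMART-seq v4 libraries. Names and coordinates came from the GENCODE annotation of GRCm38.

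The members and lists were chosen with earlier results of these data known. Deposited counts were tested with edgeR 4.0.16 (filterByExpr by genotype, TMM, glmQLFit and glmQLFTest, no covariate, Benjamini-Hochberg over 17086 genes, threshold 0.05); the sex comparison had genotype in the fit. Deposited RPKM values were used for levels. Intervals are 95%. Named genes were the 8 members, list genes that were called and the 2 most abundant tested genes of each list, the Lrrtm genes, up to 10 nearest tested genes within 1 Mb of Ctnna3, and the 5 genes most like Ctnna3. Some genes under this rule are not reported here. Genes of stratified epithelium, Cadm4, Tet1 and genes called only under an alternative were named after their values were seen, as was Slc1a3. Alternatives were voom and limma 3.58.1 (the study's test), DESeq2 1.42.0, RLE scaling, other filters, sex in the fit, the females alone, limma with a pseudocount of 0.1 or 1 on log2 nRPKM, a 2-fold threshold, and leaving out each mouse. Correlations used 100000 permutations. Words of 50 bases shared between transcripts gave the share of ambiguous reads. Scripts were tested on simulated data. Same-genotype libraries differed by at least 19.6 times the sampling noise. The total counts overlapped between the genotypes but were mostly lower in PS2APP;Trem2wt mice. They ran from 26120961 to 114857155 (median 35201380) in PS2APP;Trem2wt and from 41567025 to 120569609 (median 55371726) in PS2APP;Trem2ko mice. PS2APP;Trem2wt mice 1, 2, 4, 5 and 6, at 40868927 or less, lay below every PS2APP;Trem2ko mouse. The part of depth in the levels of the low genes was not tested.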

Additional observations from a re-analysis of the deposited data

Results flagged for a closer look

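In 15 groups of mice examined, 2 held a value far from the rest by Dixon's criterion, and chance flags about 1 in 20 groups. The Ctnna2 level of PS2APP;Trem2ko mouse 6 was 0.364 nRPKM, with a gap to the next mouse of 0.785 of the range of its genotype. The Cdh2 level of PS2APP;Trem2ko mouse 5, the male of its genotype, was 0.235 nRPKM, with a gap of 0.726 of the range.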

How the results depend on the processing

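The directions of all 8 genes held under every alternative run, except that Cdh2 did not pass the filter in females only. Ctnna3 was called in each, but it was picked for its counts in this contrast, so nothing is read from these calls. The number of the 8 genes called lower, 2, was 1 in females only and 1 at a 2-fold threshold, where Jup was lost. For other junction genes, the number called lower, 1, was 3 with voom and limma (Fmn1, Cadm1, Cadm4), 5 with DESeq2 (among them these and Ctnnb1), 2 with RLE scaling, 2 with a filter of 10 counts in 6 mice, 3 with limma on log2(nRPKM + 0.1), 3 with limma on log2(nRPKM + 1), and 1 to 4 with single mice left out (4 without PS2APP;Trem2wt mouse 1). The number called higher, 1 (Cadm2), was also 1 with voom and limma (Dsc3) and in females only (Cdh23), and it was 2 with DESeq2, 0 without a filter, 0 with limma on either log2(nRPKM) scale, 0 at a 2-fold threshold and 0 to 2 with single mice left out. Called neighbors of Ctnna3 numbered 1 lower with DESeq2 (Tet1) and 0 to 1 with single mice left out, against 0. Those higher, 2, were 1 without a filter, 0 at a 2-fold threshold and 0 to 2 with single mice left out. Of the 8 genes, 1 (Cdh2) was called higher in males with voom and limma and 1 with DESeq2, against 0. The cause of these shifts was not tested. Over all genes, DESeq2 called 862 against 348. No paired analysis was possible because the labels carry no pair numbers, although the study's methods state that animals were in general handled in pairs of both genotypes from perfusion to sorting. Depth limits Cdh1 and Cdh2, with 0 to 194 counts per mouse, and gives Ctnna3 only a bound in PS2APP;Trem2ko mice.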
